A study of Homo sapiens with 8 samples.

Results

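The ADAM, ADAMTS and ADAMTSL genes were taken as the rows of the count table whose symbol is ADAM, ADAMTS or ADAMTSL followed by a number. They are 46 of 61228 rows, with 22 ADAM, 19 ADAMTS and 5 ADAMTSL genes. RNA was sequenced from cells of MDA-MB-231, a triple-negative human breast cancer line, in 8 libraries, 2 in each of 4 groups. Knockout gels held cells nucleofected with Cas9 and guides against ETV1, ETV4 and ETV5, and grown in collagen I. Control gels held cells given Cas9 and control guides, in the same kind of gel. Knockout monolayers held cells with the same knockout on plastic, and control monolayers held cells given control guides on plastic. The label of the control monolayers does not name Cas9, and whether they received it is unknown from the sources used here. All cells grew in DMEM/F12 with serum, and the gels alone were digested with collagenase I and frozen as pellets before RNA extraction. Whether the knockout cells were a pool or a clone, which gel had which collagen concentration, and whether replicates were separate cultures could not be learned from the sources used here. The p-values thus measure the spread between these libraries and no more.

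ADAM proteins are membrane-anchored proteins with a metalloproteinase and a disintegrin domain, and the active ones cut the outer part off other membrane proteins, a step called shedding. ADAMTS proteins are secreted relatives with thrombospondin repeats that cleave proteoglycans, procollagens and other matrix proteins, and ADAMTSL proteins share their matrix-binding parts but have no protease domain. In breast cancer cells ADAM10 and ADAM17 are best known for releasing EGF receptor ligands and cutting Notch. ETV1, ETV4 and ETV5 are the PEA3 transcription factors of the ETS family, which bind DNA at a GGAA core.

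The RefSeq promoters of 3 sheddase genes are shown because the knocked-out factors bind GGAA-centred sites, and because ADAM8 and ADAM17 fell in the knockout gels while ADAM10 did not pass the test there. Each runs from 250 bases before to 50 after the annotated start on GRCh38.p14, written 5′ to 3′ on the gene's minus strand. Capitals mark CCGGAA or AGGAAG on either strand. ADAM17 is at chr2:9555781-9556080, ADAM10 at chr15:58749658-58749957 and ADAM8 at chr10:133276819-133277118.
ADAM17: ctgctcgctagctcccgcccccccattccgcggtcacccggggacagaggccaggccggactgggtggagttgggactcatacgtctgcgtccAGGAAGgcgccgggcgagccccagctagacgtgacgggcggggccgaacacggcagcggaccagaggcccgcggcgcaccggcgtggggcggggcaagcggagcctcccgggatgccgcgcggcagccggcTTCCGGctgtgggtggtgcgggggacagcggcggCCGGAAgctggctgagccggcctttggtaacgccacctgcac
ADAM10: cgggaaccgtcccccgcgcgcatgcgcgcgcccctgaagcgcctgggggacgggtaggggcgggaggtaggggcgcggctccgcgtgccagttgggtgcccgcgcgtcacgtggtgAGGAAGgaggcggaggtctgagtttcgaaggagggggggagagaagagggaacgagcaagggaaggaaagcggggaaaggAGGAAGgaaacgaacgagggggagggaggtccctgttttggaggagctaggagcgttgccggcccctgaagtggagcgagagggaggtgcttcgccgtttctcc
ADAM8: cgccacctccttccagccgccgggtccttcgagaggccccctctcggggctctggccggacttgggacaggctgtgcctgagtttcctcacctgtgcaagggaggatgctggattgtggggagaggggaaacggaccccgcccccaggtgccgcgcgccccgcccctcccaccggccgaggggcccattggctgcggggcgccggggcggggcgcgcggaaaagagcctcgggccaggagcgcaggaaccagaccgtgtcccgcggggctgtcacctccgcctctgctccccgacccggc
The ADAM17 promoter held CCGGAA on both strands, 26 bases before and 9 after the start, and AGGAAG 157 bases before it. The ADAM10 promoter held AGGAAG 134 and 54 bases before the start, and the ADAM8 promoter held neither motif. RefSeq promoters were matched for 18 of the 24 tested members. Those without one were ADAM9, ADAM11, ADAMTS1, ADAMTS9, ADAMTS15 and ADAMTS16. Each of these passed for the knockout in gels, in monolayers or in both, and every member that rose in the knockout gels is among them. The shares that follow leave these members out. CCGGAA was in 2 of the 18 (11.1%), against 17.2% of 35116 promoters of the same length, and AGGAAG in 4 (22.2%) against 33.6%. The bare core GGAA, which the longer motifs contain, was in 17 (94.4%) against 95.5%. These matches describe the letters in the windows and are no measure of binding.

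Library totals ran from 15824504 to 23896899 counts, and mitochondrially encoded genes took 2.65 to 4.47% of them. A level of 1 CPM, with library sizes adjusted by TMM factors, stood for 16.1 to 24.9 counts. ETV1 had 138, 141, 136 and 151 CPM in the knockout gels and monolayers, against 200.2 to 222 CPM in the 4 control libraries. ETV4 had 61.2 to 67.1 CPM in the 4 knockout libraries against 81.3 to 96.8 CPM in the controls, and ETV5 had 115 to 117 CPM against 109.6 to 119 CPM. ETV1 and ETV4 transcripts were lower in every knockout library, and ETV5 overlapped. Of markers of other cell types, ESR1 and PGR did not exceed 0.0805 CPM, the fibroblast marker COL3A1 0.273 CPM and the endothelial marker CDH5 0.062 CPM, while the mesenchymal marker VIM had 5284 to 7407 CPM. The 6 luminal markers summed to 19.4 to 24.3 CPM over the 8 libraries, largely GATA3 (7.53 to 12.7 CPM) and ERBB3 (5.15 to 11.4 CPM). The 7 fibroblast markers summed to 12.2 to 14.4 CPM in the knockout gels, 13.5 to 13.8 CPM in the control gels, 24.2 to 25.2 CPM in the knockout monolayers and 19 CPM in the control monolayers, largely COL1A1 (9.04 to 18.4 CPM). The 5 endothelial markers summed to 7.18 and 8.66 CPM in the knockout gels against 11.2 CPM in both control gels, and to 9.42 and 11.1 CPM in the knockout monolayers against 12.3 and 12.5 CPM in the control monolayers, largely PECAM1 (3.4 to 7.88 CPM). Their part in the values of the members was not tested.

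Of the 46 members, 24 passed the filter on low counts and 22 did not. Those that passed were 10 ADAM, 10 ADAMTS and 4 ADAMTSL genes. Per kilobase of exon, ADAM8 and ADAM9 had the highest mean levels, 57.7 and 45.9 CPM per kilobase over the 8 libraries, above 94.8% and 93.1% of 13395 genes with a known length. ADAMTS1 and ADAM15 came next with 30.5 and 29.9 CPM per kilobase, followed by ADAM19 with 15.2, ADAM10 with 11.5, ADAMTS12 with 9.74, ADAMTS15 with 9.25 and ADAM17 with 5.66. The lowest was ADAM12 with 0.0483 CPM per kilobase. This order changed between groups, since ADAMTS1 led in the knockout gels with 52.4 CPM per kilobase but had 37 in the control gels, 17 in the knockout monolayers and 15.5 in the control monolayers. ADAM8 had 39.6, 63.2, 62.5 and 65.4 CPM per kilobase in the same 4 groups.

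**Figure D1:**
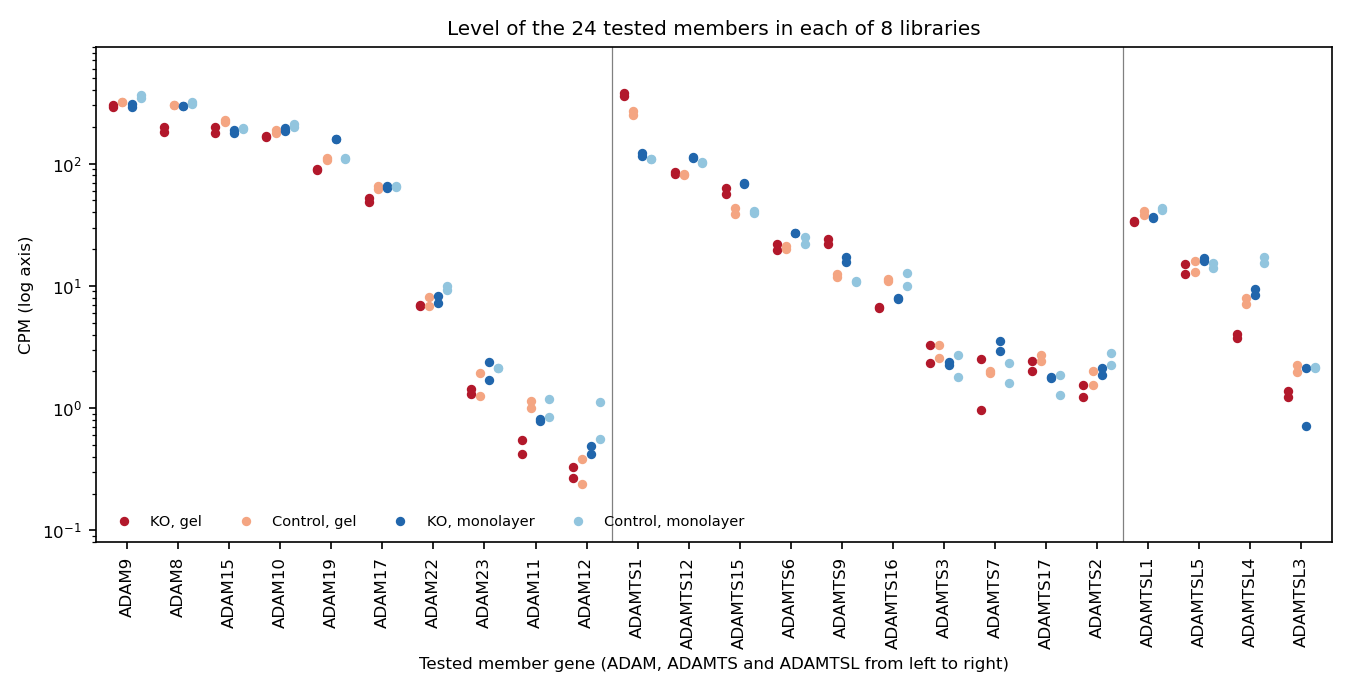
Level of each of the 24 tested members in each library, in CPM on a log axis, with knockout gels, control gels, knockout monolayers and control monolayers as separate symbols. ADAMTS1 runs from 109.7 to 380 CPM, while ADAM10 runs from 165 to 211 CPM.

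Summed over the family, the members had 1651 and 1586 CPM in the knockout gels, 1694 and 1730 CPM in the control gels, 1615 and 1643 CPM in the knockout monolayers, and 1613 and 1664 CPM in the control monolayers. The sums lay close together, but their make-up differed. ADAM genes summed to 1009 and 977 CPM in the knockout gels, against 1208 to 1282 CPM in the control libraries of both cultures. ADAMTS genes summed to 588 and 559 CPM in the knockout gels, 426 and 449 CPM in the control gels, 359.96 and 366 CPM in the knockout monolayers, and 312 and 304 CPM in the control monolayers. The ADAM sum was lowest, and the ADAMTS sum highest, in the knockout gels, where ADAMTS1 made up most of it. Without ADAMTS1 the ADAMTS genes summed to 208 and 198 CPM in the knockout gels, 175 and 178 CPM in the control gels, 243 and 243 CPM in the knockout monolayers, and 202 and 194 CPM in the control monolayers. That sum was highest in the knockout monolayers.

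In the gels, knockout was compared with control to ask which members differed in collagen in cells given the ETV1, ETV4 and ETV5 guides. The ETV5 transcript did not pass there (log2 0.02, edgeR adjusted p = 0.808), and these counts do not show the loss of any of the 3 proteins. Sheddase genes ADAM8, ADAM17, ADAM19 and ADAM15 fell, and the proteoglycan-cleaving ADAMTS1, ADAMTS9 and ADAMTS15 rose. By edgeR's quasi-likelihood test with Benjamini-Hochberg adjustment over 15568 genes, 3 of 24 tested members rose, 8 fell and 13 did not pass an adjusted p of 0.05. That is 45.8% of the tested members, against 23.9% of all tested genes (11.5% higher, 12.4% lower). The median log2 fold change was -0.20 for the tested members and -0.00 for all tested genes. By subfamily, 5 of 10 ADAM genes fell and none rose, 3 of 10 ADAMTS genes rose and 1 fell, and 2 of 4 ADAMTSL genes fell. The count of 8 falls went to 5 without knockout gel replicate 2.

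ADAM8, a sheddase best known from leukocytes and also found in triple-negative breast tumours, had 199 and 179.9 CPM in the knockout gels, against 302 and 302 CPM in the control gels. Both knockout libraries were well below both controls. The log2 fold change was -0.67 ± 0.049 (SE), with an adjusted p of 5.79e-13 by edgeR. In the same gels the 5 leukocyte markers summed to 2.74 and 2.76 CPM in the knockout, against 6.77 and 8.12 CPM in the control. Of these LYZ had 1.32 and 1.59 CPM in the knockout gels against 5.86 and 6.2 CPM in the control gels. Its log2 fold change was -2.04 (edgeR adjusted p = 9.56e-09). CD14 had 1.21 and 0.744 CPM in the knockout gels against 0.624 and 1.37 CPM in the control gels. PTPRC, the defining leukocyte gene, had 0.219 and 0.425 CPM against 0.288 and 0.549 CPM, and at most 0.845 CPM over the 8 libraries. Neither passed in the gels (log2 -0.01 and -0.34, edgeR adjusted p = 0.992 and 0.732), and CD3E was at 0 in every gel. In monolayers the 5 leukocyte markers summed to 4.47 and 4.47 CPM in the knockout, against 6.16 and 5.58 CPM in the control. LYZ fell there too (log2 -0.84, edgeR adjusted p = 0.00818). The part of leukocyte RNA in the ADAM8 values was not tested. In bulk RNA, fewer cells of a type and less RNA per cell cannot be told apart. ADAM8 lies on chromosome 10 from 133262423 to 133276868.

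ADAM17, the sheddase that frees TNF and several EGF receptor ligands, had 52.3 and 49 CPM in the knockout gels, against 62.6 and 65.5 CPM in the control gels. The groups did not overlap, and the log2 fold change was -0.34 ± 0.064 (adjusted p = 0.000124, edgeR). ADAM17 lies on chromosome 2 from 9488486 to 9555830, and 13.6% of its exon bases are overlapped by genes on the other strand, IAH1 among them. IAH1 had 19 to 23.8 CPM and passed in none of the 5 contrasts. The sources used here do not say whether counting used strand.

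ADAM10, the main Notch sheddase, had 165 and 169 CPM in the knockout gels against 177 and 188 CPM in the control gels. The knockout libraries were the lower ones, but the difference did not pass (log2 -0.13, 95% interval -0.23 to -0.02, edgeR adjusted p = 0.0682). With only these 4 gels in the fit its adjusted p was 0.0334, and with the replicate number as a block 0.0444. ADAM10 lies on chromosome 15 from 58588809 to 58749707.

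ADAM19, which sheds neuregulin 1, had 89.2 and 90.9 CPM in the knockout gels against 111 and 108 CPM in the control gels (log2 -0.28 ± 0.053, edgeR adjusted p = 0.000108). Its libraries were lowest in the knockout gels of all 4 groups. ADAM15, whose human protein carries an integrin-binding RGD motif, had 201 and 177 CPM in the knockout gels against 226 and 220.1 CPM in the control gels. The knockout libraries were lower but spread more widely (log2 -0.24 ± 0.052, edgeR adjusted p = 0.000788), and without knockout gel replicate 2 the call was lost (log2 -0.14, adjusted p = 0.0949).

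ADAM11, a catalytically inactive member known from neurons, was near the detection limit, with 10 and 8 counts in the knockout gels and 21 and 21 in the control gels. Its log2 fold change was -1.14 ± 0.42 (edgeR adjusted p = 0.0449), and it held in 5 of 13 alternative fits, with adjusted p from 0.043 to 0.221. Each gel library decided it: the adjusted p was 0.0749 and 0.221 without knockout gel replicates 1 and 2, and 0.104 and 0.18 without control gel replicates 1 and 2. It was also lost without either knockout monolayer replicate (0.0509 and 0.0511). ADAM9, ADAM12, ADAM22 and ADAM23 did not pass in the gels, with log2 fold changes of -0.10, -0.05, -0.12 and -0.22.

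ADAMTS1, a secreted protease that cleaves versican and aggrecan, had 380 and 360.5 CPM in the knockout gels, against 252 and 271 CPM in the control gels. Both knockout libraries were above both controls, and these were the 2 highest ADAMTS1 values of the 8 libraries. The log2 fold change was 0.50 ± 0.048 (edgeR adjusted p = 4.41e-10). ADAMTS1 lies on chromosome 21 from 26835755 to 26845409, on the minus strand.

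ADAMTS9, which cleaves versican, had 24 and 22.2 CPM in the knockout gels against 12.4 and 11.7 CPM in the control gels, a log2 fold change of 0.93 ± 0.1 (edgeR adjusted p = 6.49e-09). It had the largest rise of the members in the gels. ADAMTS15, another versican-cleaving protease, had 62.9 and 56.6 CPM in the knockout gels against 38.6 and 43 CPM in the control gels (log2 0.55 ± 0.07, edgeR adjusted p = 1.82e-07). ADAMTS9 lies on chromosome 3 from 64515654 to 64688000 and ADAMTS15 on chromosome 11 from 130448645 to 130476645.

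ADAMTS16, reported to cleave fibronectin, went the other way, with 6.58 and 6.75 CPM in the knockout gels against 11.4 and 10.9 CPM in the control gels. The groups did not overlap (log2 -0.74 ± 0.14, edgeR adjusted p = 8.8e-05). ADAMTSL4, a matrix protein that binds fibrillin microfibrils, had 4.05 and 3.77 CPM in the knockout gels against 7.15 and 7.96 CPM in the control gels (log2 -0.94 ± 0.16, edgeR adjusted p = 2.27e-05). Genes on the other strand overlap 14.4% of the ADAMTSL4 exon bases, and the one named for it, ADAMTSL4-AS1, was at most 0.425 CPM. ADAMTSL1, a secreted protein also called punctin, had 34.1 and 33.1 CPM in the knockout gels against 37.7 and 41 CPM in the control gels. Its fall of 0.23 on the log2 scale (edgeR adjusted p = 0.0215) was lost without knockout gel replicate 2 (adjusted p = 0.15) and without control gel replicate 2 (adjusted p = 0.25), and by the DESeq2 test (0.103).

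The same question was asked of cells on plastic, in knockout against control monolayers. ADAM19, ADAMTS9 and ADAMTS15 rose, and ADAM9, ADAMTS16, ADAMTSL4 and ADAMTSL1 fell. Of the 24 tested members 3 rose and 4 fell (29.2%), against 19.2% of all tested genes (9.6% in each direction). The median log2 fold change was -0.05 for the tested members and 0.01 for all tested genes. Across 13395 genes the log2 fold changes in monolayers had a Spearman correlation of -0.211 with exon length, and in gels of -0.0647. The tested members had a median exon length of 7717 bases against 4931 bases for those genes, and the part of length in the counts was not tested.

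ADAM19 had 158 and 159 CPM in the knockout monolayers, against 109 and 111 CPM in the control monolayers. Both knockout libraries were higher, the reverse of the gels (log2 0.53 ± 0.051, edgeR adjusted p = 7.28e-10). ADAM19 lies on chromosome 5 from 157477304 to 157575775. ADAM9, a widely expressed sheddase, had 288 and 307 CPM in the knockout monolayers against 345 and 364 CPM in the control monolayers (log2 -0.25 ± 0.047, edgeR adjusted p = 0.000159). ADAM17 had 62.6 and 65.4 CPM in the knockout monolayers against 65.7 and 64.1 CPM in the control monolayers, and ADAM8 had 299 and 299 CPM against 306 and 319.6 CPM. Neither passed there: the log2 fold change was -0.02 for ADAM17 (95% interval -0.15 to 0.11, adjusted p = 0.87) and -0.06 for ADAM8 (-0.16 to 0.03, adjusted p = 0.391). ADAM10, with 184 and 195 CPM against 199 and 211 CPM, had -0.11 (-0.22 to -0.01, adjusted p = 0.111).

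ADAMTS15 had 69.2 and 68.8 CPM in the knockout monolayers, against 39.6 and 41.3 CPM in the control monolayers (log2 0.77 ± 0.069, edgeR adjusted p = 1.38e-10). ADAMTS9 had 17.3 and 15.6 CPM in the knockout monolayers against 10.7 and 11 CPM in the control monolayers (log2 0.60 ± 0.11, edgeR adjusted p = 9.35e-05). These 2 proteases were the tested members that passed as higher in the knockout in both cultures. ADAMTS1 had 117 and 123 CPM in the knockout monolayers against 109.7 and 109.8 CPM in the control monolayers, a log2 difference of 0.13 (95% interval 0.02 to 0.24) that did not pass (edgeR adjusted p = 0.0878).

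ADAMTSL4 had 9.36 and 8.45 CPM in the knockout monolayers, against 15.3 and 17.2 CPM in the control monolayers (log2 -0.86 ± 0.12, edgeR adjusted p = 1.81e-06). ADAMTS16 had 7.85 and 8.02 CPM in the knockout monolayers against 12.8 and 10.1 CPM in the control monolayers (log2 -0.55 ± 0.13, edgeR adjusted p = 0.00273). These genes and ADAMTSL1 were the 3 members that passed as lower in the knockout in both cultures. Others, such as ADAM8, ADAM9, ADAM10 and ADAM15, had negative log2 fold changes in both cultures but did not pass in both. ADAM10 passed in neither culture, and ADAM8, ADAM9 and ADAM15 passed in a single culture each. ADAMTSL1 had 36.3 and 36 CPM in the knockout monolayers against 41.8 and 43.1 CPM in the control monolayers (log2 -0.23, edgeR adjusted p = 0.021). The ADAMTSL4 and ADAM9 calls were kept in all 14 alternatives. The ADAMTS16 call was lost without control monolayer replicate 1 (adjusted p = 0.176), where 2 members fell in place of 4. The ADAMTSL1 call was lost without any one of the 4 monolayer libraries, with adjusted p from 0.0504 to 0.1, and by the DESeq2 test (0.0849).

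**Figure D2:**
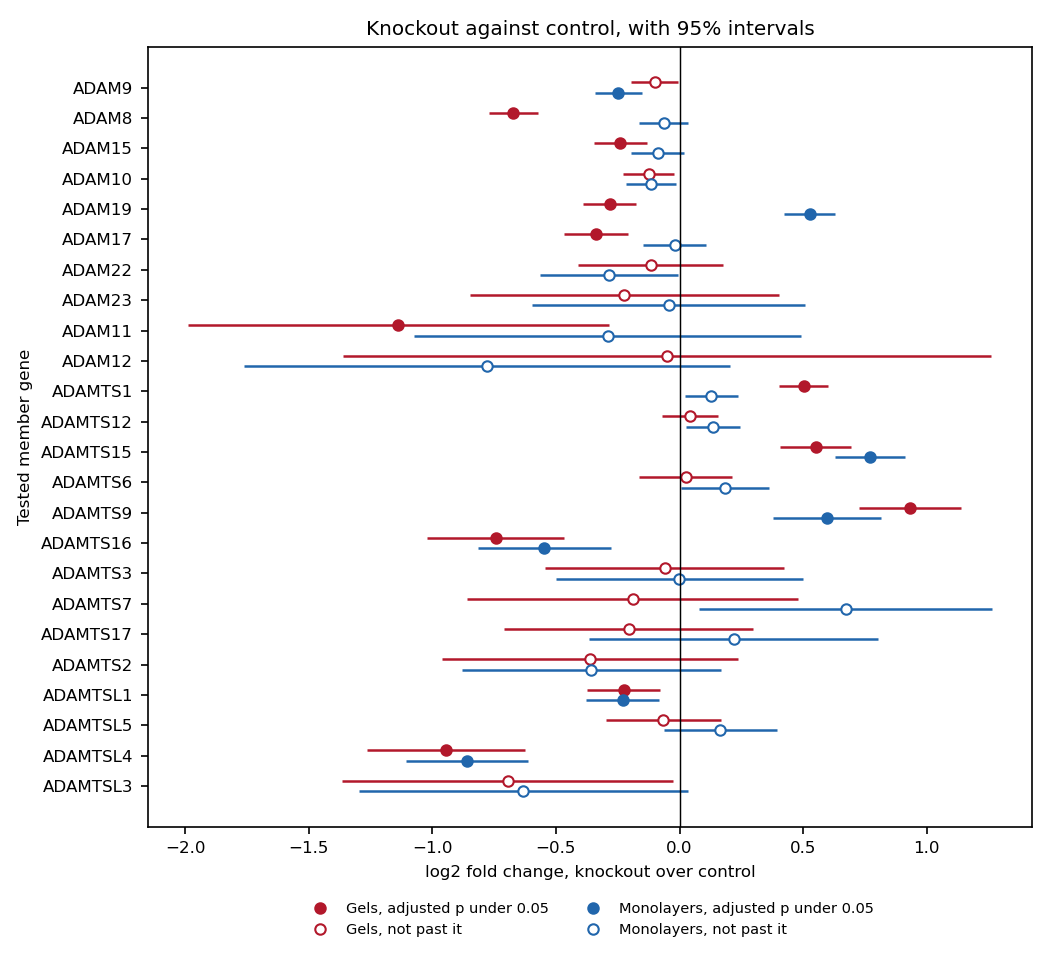
Log2 fold change of knockout over control for each of the 24 tested members, in gels (upper mark of each pair) and in monolayers (lower mark), with 95% intervals. Filled marks passed an adjusted p of 0.05. ADAM19 lies on opposite sides of 0 in the 2 cultures, at -0.28 and 0.53.

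The interaction takes the log2 fold change of the knockout in gels minus its log2 fold change in monolayers, and asks whether the 2 cultures differ. Of the 24 tested members 1 had a higher and 3 a lower value (16.7%), against 6.6% of all tested genes (2.67% higher, 3.94% lower). The median was -0.12 for the tested members and -0.02 for all tested genes. Of those that passed, ADAM19 had the largest interaction, -0.81 ± 0.073 (edgeR adjusted p = 1.18e-09), and ADAM8 had -0.61 ± 0.069 (edgeR adjusted p = 1.07e-07). ADAMTS1 was the one with a more positive effect in gels, 0.37 ± 0.072 (edgeR adjusted p = 0.000705). Those 3 calls were kept in every alternative run. The sparsely counted ADAMTS7 (-0.86) and ADAM11 (-0.85) had larger values that did not pass (adjusted p = 0.279 and 0.458).

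ADAM17 had an interaction of -0.32 ± 0.089 (edgeR adjusted p = 0.0234), which was less secure. It was kept in 5 of 13 alternatives, with adjusted p from 0.0143 to 0.17. It was lost with the DESeq2 test (adjusted p = 0.0781) and without any one library other than knockout gel replicate 1 (0.17 without knockout gel replicate 2, 0.0698 and 0.145 without control gel replicates 1 and 2, 0.061 and 0.134 without knockout monolayer replicates 1 and 2, and 0.0831 and 0.0684 without control monolayer replicates 1 and 2). Without knockout gel replicate 1 the count of lower members was 5, since ADAM15 (-0.24, adjusted p = 0.0432) and the sparsely counted ADAMTS7 (-1.71, adjusted p = 0.0131) passed too. For ADAMTS9 and ADAMTS15 the effects in the 2 cultures were not shown to differ, with interactions of 0.34 (95% interval 0.03 to 0.64, adjusted p = 0.198) and -0.22 (-0.42 to -0.02, adjusted p = 0.202). For ADAMTSL4 it was -0.08 (-0.49 to 0.32, adjusted p = 0.87).

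**Figure D3:**
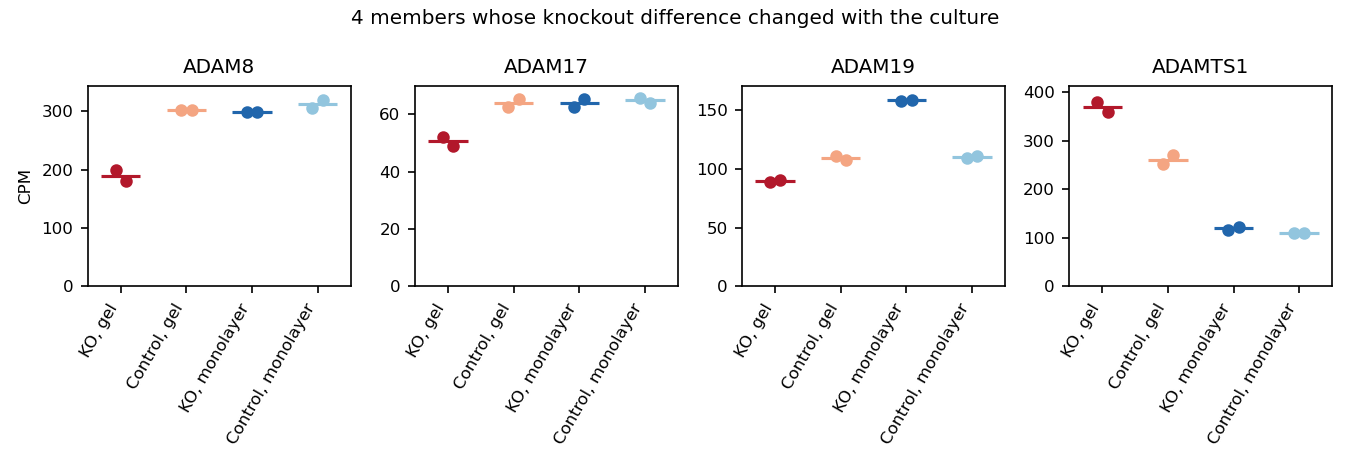
CPM of ADAM8, ADAM17, ADAM19 and ADAMTS1 in each library, with a point per library and a short horizontal line at the mean of each group. ADAM19 is lower in knockout gels and higher in knockout monolayers, and ADAM8 and ADAM17 are lowest in the knockout gels.

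The comparison of gels with monolayers asks which members differ between collagen and plastic. ADAMTS1 was the one member that passed as higher in gels in both kinds of cells, and ADAMTSL4, ADAMTS12 and ADAM10 passed as lower in both. Others, such as ADAMTS9, ADAMTS17, ADAMTS6, ADAM8 and ADAM12, passed in a single kind of cells, with a log2 fold change of the same sign in the other kind. Of these named genes, ADAMTS9 and ADAMTS17 were higher in gels and the rest lower. In knockout cells 2 of 24 tested members were higher in gels and 9 lower (45.8%), against 38% of all tested genes (20.1% higher, 17.9% lower). In control cells 3 were higher and 5 lower (33.3%), against 26.7% (16% higher, 10.7% lower). The 5 lower include ADAM12, which passed the filter on low counts through the control monolayers alone. The median log2 fold change was -0.25 in knockout cells and -0.05 in control cells, against -0.01 and 0.01 for all tested genes. With library totals in place of TMM factors the split in control cells was 1 higher and 9 lower, and the median of all tested genes was -0.07. Of single libraries, leaving out control gel replicate 1 gave 1 higher and 2 lower, leaving out control monolayer replicate 1 gave 1 higher, and leaving out control gel or control monolayer replicate 2 gave 3 lower.

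ADAMTS1 had 380 and 360.5 CPM in the knockout gels against 117 and 123 CPM in the knockout monolayers, a log2 fold change of 1.63 ± 0.051 (edgeR adjusted p = 2.36e-23). In control cells it had 252 and 271 CPM in the gels against 109.7 and 109.8 CPM in the monolayers (log2 1.25 ± 0.051, edgeR adjusted p = 5.58e-20). Every gel library had over 2 times the ADAMTS1 level of every monolayer library. The 9 immediate-early and dissociation genes moved with the gels, which alone were digested: they summed to 2452 and 2340 CPM in the knockout gels and 2418 and 2515 CPM in the control gels, against 731 and 688 CPM in the knockout monolayers and 706 and 712 CPM in the control monolayers. Of the 9, 6 were higher and 2 lower in gels in knockout cells, and 7 were higher and 1 lower in control cells. FOS was at 649 to 707 CPM in gels and 7.69 to 9.97 CPM in monolayers. In knockout against control, 3 of the 9 genes rose and 2 fell in gels (55.6%, against 23.9% of all tested genes). In monolayers 3 rose and 3 fell (66.7%, against 19.2%). The interaction was higher for 2 and lower for 4 (66.7%, against 6.6%). The part of these 9 genes in the gel, knockout and interaction values of ADAMTS1 and of the other members was not tested.

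ADAMTSL4 had 4.05 and 3.77 CPM in the knockout gels against 9.36 and 8.45 CPM in the knockout monolayers (log2 -1.18 ± 0.16, edgeR adjusted p = 2.62e-07). In control cells it had 7.15 and 7.96 CPM in the gels against 15.3 and 17.2 CPM in the monolayers (log2 -1.10 ± 0.12, edgeR adjusted p = 1.97e-08). It was thus lowest in the knockout gels and highest in the control monolayers, with no overlap between any 2 groups. ADAMTS12, which cleaves cartilage oligomeric matrix protein, was lower in gels by -0.42 ± 0.055 in knockout cells and -0.33 ± 0.055 in control cells on the log2 scale (edgeR adjusted p = 1.96e-07 and 2.2e-05). ADAM10 was lower in gels by -0.18 ± 0.05 in knockout cells and -0.17 ± 0.05 in control cells (edgeR adjusted p = 0.00538 and 0.0117). The ADAM10 calls were lost without knockout monolayer replicate 2 (0.112), and in control cells without control gel replicate 1 (0.227) or control monolayer replicate 2 (0.114).

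Several members differed between gels and monolayers in knockout cells and did not pass in control cells. ADAM19 was lower in knockout gels than in knockout monolayers by -0.82 ± 0.052 on the log2 scale, ADAM8 by -0.66 ± 0.049 and ADAM17 by -0.34 ± 0.064 (edgeR adjusted p = 1.4e-14, 8.67e-13 and 7.28e-05). The gel effects of these 3 genes in control cells were -0.01, -0.05 and -0.02, and the difference between the 2 kinds of cells is the interaction given above. ADAMTS9 was higher in knockout gels (log2 0.49 ± 0.098, edgeR adjusted p = 0.000149), and ADAMTS6, a regulator of fibrillin microfibrils, lower (log2 -0.38 ± 0.091, edgeR adjusted p = 0.00115). In control cells ADAMTS9 had 0.15 and ADAMTS6 -0.22 (adjusted p = 0.321 and 0.0683), and the ADAMTS6 value passed in 6 alternatives, such as with library totals (0.0127). ADAMTS15 was lower in knockout gels by -0.21 (edgeR adjusted p = 0.0136), a call lost without knockout gel replicate 2 (0.227) or knockout monolayer replicate 1 (0.073) or 2 (0.0574), and by the DESeq2 test (0.0556). ADAMTS7, a relative of ADAMTS12, had 46 and 18 counts in the knockout gels against 59 and 54 in the knockout monolayers. Its replicates in the gels lay far apart, and its log2 fold change of -0.90 ± 0.3 (edgeR adjusted p = 0.0199) became -0.36 (adjusted p = 0.38) without knockout gel replicate 2 and -0.76 (adjusted p = 0.154) without knockout monolayer replicate 1, and did not pass by the DESeq2 test (0.086).

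In control cells 4 further members passed between gels and monolayers. ADAM15 was higher in gels (log2 0.20 ± 0.052, edgeR adjusted p = 0.00384), a call lost without control gel replicate 1 (0.0778) or control monolayer replicate 1 (0.0876) and with library totals (0.0835). ADAM9 was lower (log2 -0.15 ± 0.047, edgeR adjusted p = 0.0137), a call lost without control gel replicate 1 (0.136) or 2 (0.0798) or control monolayer replicate 2 (0.112). ADAMTS17, whose human mutations cause short stature and lens defects, had 2.74 and 2.41 CPM in the control gels against 1.29 and 1.86 CPM in the control monolayers (log2 0.76 ± 0.26, edgeR adjusted p = 0.0296). That call was lost without control gel replicate 1 (0.2) or 2 (0.0642) or control monolayer replicate 1 (0.392), where the log2 fold change was 0.45, with library totals (0.0567) and by the DESeq2 test (0.198). ADAM12, a sheddase of HB-EGF, had 5 and 7 counts in the control gels against 14 and 18 counts in the control monolayers (log2 -1.34 ± 0.51, edgeR adjusted p = 0.0488). ADAM12 passed the filter on low counts through the control monolayers alone, so a difference from that group was built into its selection. Its call was kept in 6 of 13 alternatives. With no filter on low counts it was lost (edgeR adjusted p = 0.0802), as it was with the compared groups alone (0.0586). Its call was lost without control gel replicate 1 (0.293) or 2 (0.0807), without control monolayer replicate 2 (0.336) and without either knockout monolayer replicate (0.0525 and 0.0528).

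**Figure D4:**
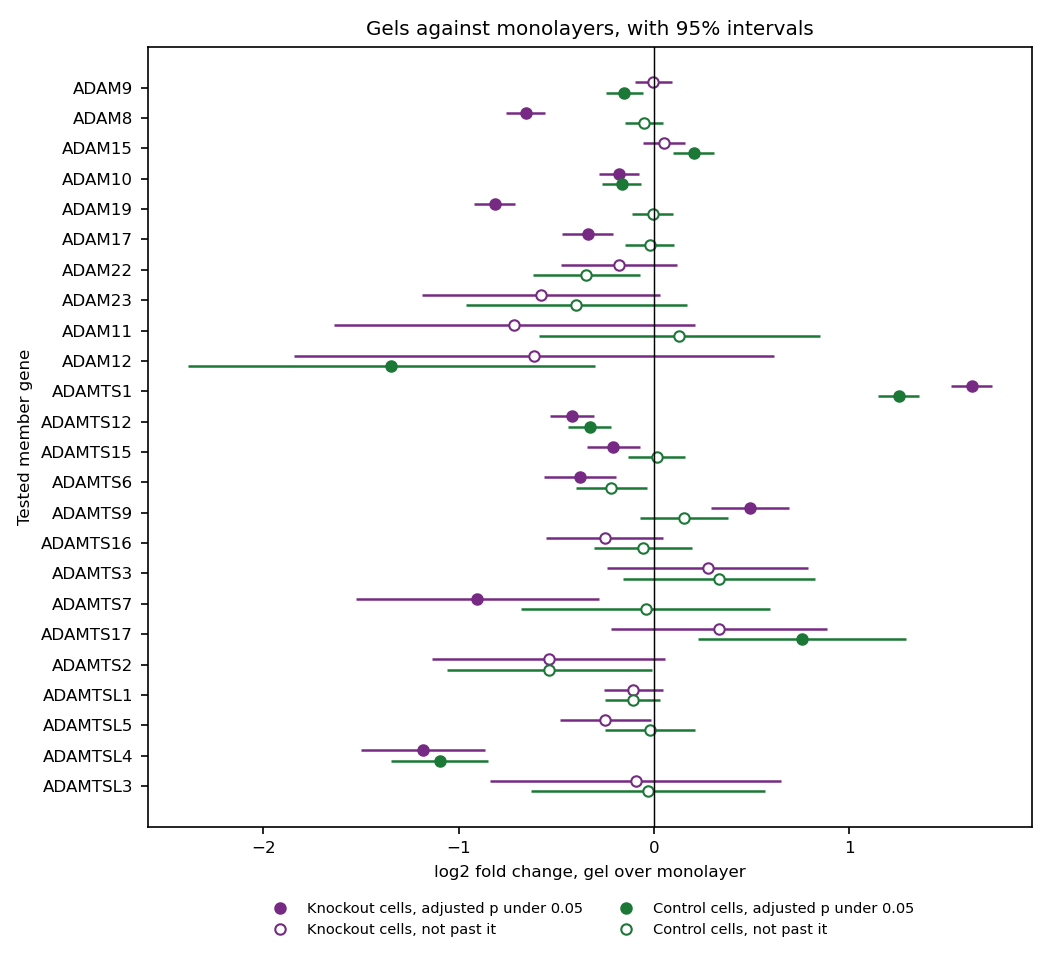
Log2 fold change of gels over monolayers for each of the 24 tested members, in knockout cells (upper mark of each pair) and in control cells (lower mark), with 95% intervals. Filled marks passed an adjusted p of 0.05. ADAMTS1 stands apart to the right at 1.63 and 1.25, and ADAMTSL4 lies at -1.18 and -1.10.

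In all, 18 of the 24 tested members passed in at least 1 of the 4 pairwise contrasts, against 55.8% of all tested genes, and 6 in none. ADAM12 is among the 18 only through its difference from the control monolayers, the group that carried it past the filter on low counts. The 6 were ADAM22 and ADAM23, inactive members that bind LGI proteins in neurons, ADAMTS2 and ADAMTS3, which remove the N-propeptides of procollagens, and ADAMTSL3 and ADAMTSL5. ADAM22 passed as lower in control gels than in control monolayers in 6 alternatives, such as with library totals (adjusted p = 0.0171) or DESeq2 size factors (0.0457). ADAMTSL5 passed as lower in knockout gels than in knockout monolayers with library totals (0.0297) and without knockout gel replicate 1 (0.0308). ADAMTSL5 had 12.6 to 17 CPM and ADAM22 6.86 to 9.99 CPM over the 8 libraries. The other 4 were at most 3.29 CPM. At that depth moderate changes were not detectable: for ADAMTS3 the 95% interval of the knockout effect in gels was -0.54 to 0.42 on the log2 scale. ADAMTSL3 had 2.11 and 0.709 CPM in the knockout monolayers against 2.17 and 2.11 CPM in the control monolayers, so its 2 knockout replicates disagreed. Without the first of them it passed (log2 -1.61, adjusted p = 0.00749).

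The 22 members below the filter had totals of 0 to 45 counts over the 8 libraries. The largest was ADAM28, known from lymphocytes, with 45 counts, of which 19 were in control gel replicate 1. ADAMTS13, the von Willebrand factor protease made mainly in liver, had 35 counts, and ADAM32 had 28. ADAM21 had 22 counts, ADAMTS5, the aggrecan-cleaving protease of cartilage, 21, and ADAMTS14, a procollagen N-proteinase, 19. ADAMTS4, ADAM20, ADAMTS20, ADAMTS19, ADAMTS18, ADAM5, ADAMTSL2, ADAM29 and ADAMTS8 had 1 to 4 counts each. The 7 with no count in any library were ADAM2, ADAM7, ADAM18, ADAM30, ADAM6, ADAM33 and ADAMTS10. Several of these, such as ADAM2, ADAM18 and ADAM30, are known from testis, and RefSeq lists ADAM5 and ADAM6 as transcribed pseudogenes. A total of 0 over the 8 libraries allows up to 3 counts in all, which covers counting error only.

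Genes that work with the members were described from fixed lists. Of 13 cofactor and maturation genes of ADAM10 and ADAM17, 12 were tested. In the knockout gels 1 rose and 3 fell (33.3%, against 23.9% of all tested genes), and in the knockout monolayers 3 rose and 3 fell (50%, against 19.2%), with medians of 0.01 and 0.16. RHBDF1 and RHBDF2 encode the iRhoms, which carry ADAM17 to the cell surface. RHBDF1 had 44.8 and 39.4 CPM in the knockout gels against 60.6 and 66.3 CPM in the control gels (log2 -0.59 ± 0.073, edgeR adjusted p = 1.34e-07). RHBDF2 had 20.1 and 18.9 CPM in the knockout gels against 29.3 and 28.8 CPM in the control gels (log2 -0.58 ± 0.085, edgeR adjusted p = 2.67e-06). TSPAN14, a tetraspanin partner of ADAM10, had 59.3 and 60.4 CPM in the knockout gels against 106 and 102 CPM in the control gels (log2 -0.80 ± 0.058, edgeR adjusted p = 5.98e-13). All 3 thus had knockout values below both controls in gels. In monolayers the same genes had -0.20, -0.32 and -0.50 (edgeR adjusted p = 0.0395, 0.00467 and 3.55e-08), and the interaction passed for RHBDF1 (-0.39, 0.0155) and TSPAN14 (-0.30, 0.0194) but not for RHBDF2 (-0.26, 0.213). FURIN, a convertase that removes the prodomain of ADAM proteins, had 96.8 and 93.1 CPM in the knockout monolayers against 61.2 and 70.1 CPM in the control monolayers (log2 0.54 ± 0.064, edgeR adjusted p = 5.16e-08), and 57.4 and 55.8 CPM in the knockout gels against 54.2 and 51.1 CPM in the control gels (adjusted p = 0.289). Its interaction was -0.44 (edgeR adjusted p = 0.00217). FRMD8, on the same list, rose in the knockout monolayers (log2 0.38, edgeR adjusted p = 0.000742) and did not pass in gels (0.13, 0.229). TSPAN17 rose in both cultures, by 0.23 in monolayers and 0.18 in gels (edgeR adjusted p = 0.0129 and 0.043).

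Of 6 inhibitor genes, 5 were tested. In the knockout gels 1 fell and none rose (20%, against 23.9% of all tested genes), and in the knockout monolayers 2 rose and 3 fell (100%, against 19.2%). TIMP3, the TIMP that inhibits ADAM17 and several ADAMTS proteases best, had 1466 and 1513 CPM in the knockout gels against 1383 and 1415 CPM in the control gels (log2 0.09, edgeR adjusted p = 0.165). In monolayers TIMP3 had 1751 and 1872 CPM in the knockout against 1481 and 1601 CPM in the control (log2 0.23 ± 0.047, edgeR adjusted p = 0.000391). TIMP2 was lower in both, by -0.41 in the knockout gels and -0.20 in the knockout monolayers (edgeR adjusted p = 1.11e-08 and 0.00115). TIMP1, an inhibitor of ADAM10, had 0.04 in gels (adjusted p = 0.602), against 0.72 in monolayers (adjusted p = 6.57e-14). TIMP4 and RECK, a membrane-anchored inhibitor, fell in the knockout monolayers by 0.58 and 0.37 on the log2 scale (edgeR adjusted p = 0.00445 and 0.0189).

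**Figure D5:**
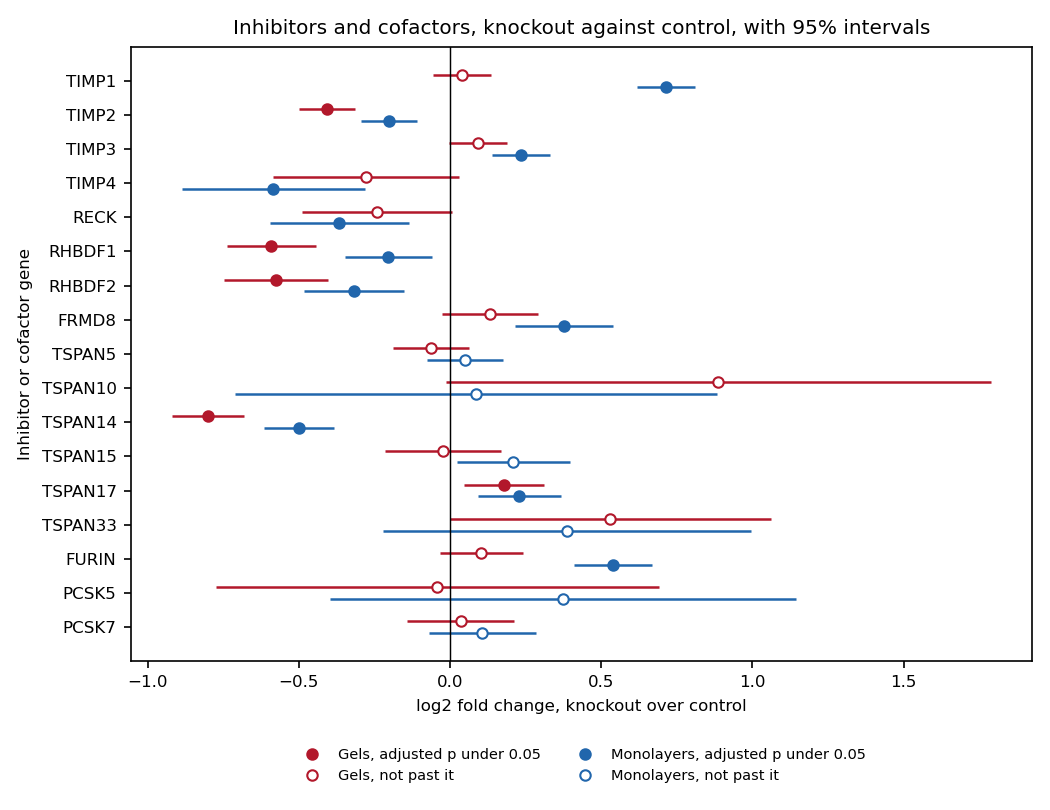
Log2 fold change of knockout over control for the 5 tested inhibitors and 12 tested cofactor or maturation genes, in gels (upper mark) and monolayers (lower mark), with 95% intervals. Filled marks passed an adjusted p of 0.05. By that test RHBDF1, RHBDF2, TSPAN14 and TIMP2 are lower in both cultures, and TSPAN17 is higher in both. TIMP1, TIMP3, FURIN and FRMD8 are higher, and TIMP4 and RECK lower, in monolayers alone.

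Of 30 listed substrates of ADAM shedding, 24 were tested. In the knockout gels 7 rose and 4 fell (45.8%, against 23.9% of all tested genes), with a median of -0.04, and in the knockout monolayers 5 rose and 5 fell (41.7%, against 19.2%), with a median of 0.06. NRG1, a ligand of the ERBB3 and ERBB4 receptors that ADAM19 can shed, had 182 and 189 CPM in the knockout gels against 117 and 113 CPM in the control gels (log2 0.69 ± 0.051, edgeR adjusted p = 8.8e-13). In monolayers NRG1 had 149 and 156 CPM in the knockout against 109.6 and 105 CPM in the control (log2 0.50, edgeR adjusted p = 2.99e-09), so it was higher in the knockout where ADAM19 was lower and where ADAM19 was higher. AREG, an ADAM17 substrate, had 109 and 111 CPM in the knockout gels against 91.3 and 88.6 CPM in the control gels, and 93.1 and 94.7 CPM in the knockout monolayers against 75.5 and 82 CPM in the control monolayers. These are log2 fold changes of 0.29 and 0.26 (edgeR adjusted p = 0.000133 and 0.00106). HBEGF did not pass for the knockout in either culture (log2 -0.12 and 0.02), but was higher in gels than in monolayers by 0.71 in knockout cells and 0.84 in control cells (edgeR adjusted p = 2.05e-11 and 3.24e-13). L1CAM, an adhesion protein cut by ADAM10, had 69.1 and 63.7 CPM in the knockout gels against 147 and 143 CPM in the control gels (log2 -1.13 ± 0.057, edgeR adjusted p = 2.83e-17), and fell by 0.51 in the knockout monolayers (adjusted p = 1.43e-08). ICAM1, an adhesion receptor shed by ADAM17, had an interaction of -0.80 (edgeR adjusted p = 3.72e-06). CDH2 had a large log2 fold change in the knockout gels, 1.98 (edgeR adjusted p = 0.0123), but was under 1 CPM in every library. It had 15 and 12 counts in the knockout gels against 2 and 5 in the control gels. CDH2 passed the filter on low counts through knockout libraries alone, so a rise over control was built into its selection. It is among the 7 substrates that rose in the knockout gels.

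Of 20 ADAMTS substrates and matrix partners, 10 were tested. In the knockout gels 3 rose and 2 fell (50%, against 23.9% of all tested genes), with a median of 0.12, and in the knockout monolayers 2 rose and 2 fell (40%, against 19.2%), with a median of -0.07. VCAN, which encodes versican, the proteoglycan that ADAMTS1, ADAMTS9 and ADAMTS15 cleave, was low, with 3.18 and 5.05 CPM in the knockout gels against 3.31 and 3.18 CPM in the control gels. The groups overlapped (log2 0.34, 95% interval -0.09 to 0.77, edgeR adjusted p = 0.258). THBS1, a matrix glycoprotein cleaved by ADAMTS1, had 846 and 879 CPM in the knockout gels against 406 and 419.5 CPM in the control gels (log2 1.06 ± 0.047, edgeR adjusted p = 4.39e-19). FBN2, a fibrillin, had 2.47 and 2.92 CPM in the knockout gels against 0.816 and 0.713 CPM in the control gels (log2 1.80 ± 0.33, edgeR adjusted p = 7.4e-05). LRP1, the endocytic receptor that clears several of these proteases, had 26 and 30.2 CPM in the knockout gels against 40 and 38.8 CPM in the control gels (log2 -0.48 ± 0.091, edgeR adjusted p = 0.000329). In the knockout monolayers RELN fell by 0.93 and COL1A1 rose by 0.50 on the log2 scale (edgeR adjusted p = 0.0277 and 0.00103). THBS1 rose there too, with 675 and 683 CPM against 426 and 394 CPM in the control monolayers (log2 0.73 ± 0.046, edgeR adjusted p = 3.06e-14).

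Of 8 integrins reported to bind ADAM disintegrin domains, 7 were tested. In the knockout gels 5 fell and none rose (71.4%, against 12.4% of all tested genes lower), with a median of -0.21, and in the knockout monolayers 2 fell and none rose (28.6%, against 9.6% lower), with a median of -0.01. ITGB3, the beta 3 subunit that human ADAM15 can bind, had 2.19 and 2.29 CPM in the knockout gels against 6 and 5.38 CPM in the control gels (log2 -1.35 ± 0.19, edgeR adjusted p = 1.42e-06). In monolayers it had 4.83 and 5.84 CPM in the knockout against 12.3 and 12.3 CPM in the control (log2 -1.20 ± 0.14, edgeR adjusted p = 7.65e-08). ITGB5 and ITGA5 fell in the knockout gels by 0.47 and 0.25 (edgeR adjusted p = 1.73e-08 and 0.00118), and their interactions passed at -0.41 and -0.38 (0.000431 and 0.00155).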

How the data were processed

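The authors deposited 1 table of raw counts per gene symbol for the 8 libraries, not normalized. Per the labels, a stranded kit for poly(A) mRNA was used. Per the submitters' processing notes, FastQC 0.11.9, STAR 2.7.9a, hg38, featureCounts and R 4.1.1 were used. With annotation and strand setting not given in the sources used here, overlapping genes and close paralogs are uncertain. From these counts, edgeR 4.0.16 in R 4.3.3 kept 15568 of 61228 genes (filterByExpr, minimum count 10, which stood for 0.533 CPM here), scaled them by TMM and fitted 4 group means over all 8 libraries. The robust quasi-likelihood F-test was two-sided, with Benjamini-Hochberg adjustment over all tested genes and a threshold of 0.05. The 4 residual degrees of freedom were extended by spread shared across genes, to 25.1 to 34.3 for the tested members. An error after ± is the SE of the log2 fold change. Levels in CPM use TMM factors, and levels per kilobase use the union of GENCODE v29 exons on GRCh38. Coordinates and promoters are RefSeq, GRCh38.p14, used for names and sequence only.

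The members and lists were chosen with earlier results of these data known. Members that passed in any contrast were named. Partner genes were named up to 3 per list and contrast by size of change, with TIMP3, RHBDF2, AREG, HBEGF and VCAN in any case. IAH1, ADAMTSL4-AS1 and TSPAN17 were chosen for naming after values were seen, as were the values of single libraries left out. The labels do not say whether replicate numbers pair libraries. Replicate differences were little correlated between groups (-0.0629 to 0.0817), which does not show whether libraries were handled in pairs. Alternatives were other scaling (DESeq2 size factors, library totals), no filter, the DESeq2 1.42.0 test, the compared groups alone, a replicate block, and each library left out. The scripts were tested on simulated data.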

Additional observations from a re-analysis of the deposited data

Results flagged for a closer look

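For 4 members the knockout effect differed between the 2 cultures by a test of the difference itself, the interaction term of the edgeR fit. ADAM19 had -0.81 (adjusted p = 1.18e-09), with both knockout gel libraries below and both knockout monolayer libraries above their controls. ADAM8 had -0.61 (adjusted p = 1.07e-07), and its knockout gel libraries were the 2 lowest of the 8. ADAM17 had -0.32 (adjusted p = 0.0234), a call that did not hold without most single libraries. ADAMTS1 had 0.37 (adjusted p = 0.000705), and its knockout gel libraries were the 2 highest of the 8.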

How the results depend on the processing

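Over 14 alternatives for each pairwise contrast and 13 for the interaction, 27 of 41 called combinations of a member and a contrast were kept in every one, 14 were lost in at least 1, and 0 changed direction. Another 10 combinations were called in at least 1 alternative only. With library totals alone in place of TMM factors, members higher and lower in gels in control cells numbered 1 and 9, against 3 and 5 with TMM. Leaving out each library in turn gave 3 to 4 higher and 2 to 4 lower members for the knockout in monolayers, 3 to 3 and 5 to 8 in gels, 1 to 3 and 2 to 7 for gels in control cells, 2 to 2 and 7 to 10 for gels in knockout cells, and 1 to 1 and 2 to 5 for the interaction. The count of 2 lower in monolayers came without control monolayer replicate 1. For gels in control cells the 1 higher came without control gel or control monolayer replicate 1, the 2 lower without control gel replicate 1, and 3 lower without control gel or control monolayer replicate 2. The cause was not tested beyond there being fewer libraries. With a replicate block the counts were 4 higher and 4 lower for the knockout in monolayers, 3 and 9 in gels, 3 and 5 for gels in control cells, 2 and 9 in knockout cells, and 1 and 3 for the interaction. By the DESeq2 test they were 3 and 3, 3 and 6, 2 and 4, 2 and 7, and 1 and 2. DESeq2 gave no adjusted p for ADAM11 in gels and ADAM12 in control cells. Depth limits ADAM11, ADAM12 and the members under 3.29 CPM.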
